A study of Mus musculus with 6 samples.

Results

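The 33 genes described here encode the enzymes that carry pyruvate into mitochondrial oxidation and run the tricarboxylic acid (TCA) cycle. They comprise the pyruvate dehydrogenase complex and its phosphatases, the enzymes of the cycle, the NADP-linked isocitrate dehydrogenases, the enzymes of the malate-aspartate shuttle and anaplerotic enzymes. They were taken by gene symbol as enzymes of these steps, with earlier results of these data known, and all 33 were among the 13809 genes of the count table. The study compared embryonic day (E) 18.5 hearts of wild-type (WT) embryos with those of *Pkm1*-knockout (KO) embryos, with 3 libraries of ribosomal RNA-depleted total RNA per genotype. KO embryos were homozygous for a CRISPR/Cas9 deletion in the exon of *Pkm* used by the PKM1 isoform of pyruvate kinase, which introduces a premature stop, and such animals were described as offspring of heterozygous parents. The deletion is in the germline, so every cell type of the heart carried it. The tissue is heart in the labels and ventricular tissue in the text of the study. The replicates were called biological, but whether a library held 1 heart or several is not given in the sources used here. The comparison asks whether transcripts of the enzymes downstream of pyruvate kinase differed between genotypes.

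Pyruvate, the product of pyruvate kinase, is oxidised in the mitochondrial matrix by the pyruvate dehydrogenase (PDH) complex to acetyl-CoA, which citrate synthase joins to oxaloacetate. The cycle then releases carbon dioxide and passes electrons to NAD and, through succinate dehydrogenase, to the respiratory chain. PDH is switched off by kinases and on by phosphatases, and the heart, rich in mitochondria, raises its use of oxidative metabolism around birth.

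The targeted gene was lower in every KO library. *Pkm* had 1294, 1296 and 1366 CPM (counts scaled to library size, after TMM normalization) in WT libraries a, b and c, and 547, 530.3 and 548 CPM in KO libraries a, b and c. Its log2 fold change of KO against WT was -1.28 (edgeR quasi-likelihood test, adjusted p = 1.47e-23), and gene counts do not separate the isoforms. The letters a to c only name libraries of a genotype. Totals were 15597756 to 19875546 counts in WT and 15567624 to 18577404 in KO, so that 3 counts correspond to 0.151 to 0.193 CPM without TMM. Library WT c stood apart from the other WT libraries: the chi-square statistic per degree of freedom between libraries was 3.76 and 3.24 for its pairs against 1.56 for WT a with WT b and 1.62 to 1.88 within KO. Between genotypes it was 15.5 to 18.7. The 4 Y-linked genes examined had 0 counts in each KO library, and *Xist* was 5.26 CPM on average in WT and 2285 CPM in KO, so genotype and sex cannot be told apart. The cardiomyocyte markers *Ttn* and *Myh6* were at 78880 and 13980 CPM on average in WT, among the most abundant genes.

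Part of the enzyme genes were lower in KO hearts, by small amounts, and none was called higher. Of the 33 genes, 14 were lower at an adjusted p under 0.05 (42.4%), while 15.7% of the 13804 genes tested were lower. No member was higher, against 14.6% of all genes, and no member was higher at an unadjusted p under 0.05 or by any of the 5 tests run (edgeR quasi-likelihood, exact and likelihood ratio tests, DESeq2 and limma voom). The fitted change was negative for 30 members and positive for 3, namely *Sdhd*, *Me2* and *Me3*. Over all genes tested it was negative for 6853 and positive for 6951. The median log2 fold change was -0.068 over the members and 0.00172 over all genes. The 14 falls were small, from 4.72% to 20.5% of the WT mean. All KO libraries were below all WT libraries for 19 members, against 21.4% of all genes, and no member had all KO libraries above, against 21.0%. Summed over the 33 genes, the WT libraries held 11877, 11923 and 11906 CPM and the KO libraries 11184, 11245 and 11204 CPM, without overlap. As a share of all counts, without TMM, the members held 1.175, 1.176 and 1.162% in WT and 1.136, 1.144 and 1.14% in KO. These shares did not overlap either, but the relative gap was smaller. The TMM factors were 0.9758 to 0.9889 in WT and 1.016 to 1.017 in KO, so the size of the fall depends on the scaling.

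Most of these genes are abundant in the heart, and abundant genes of the table were called lower more often than rare ones. In bins of the mean CPM over the 6 libraries, which were set after the data had been seen, the share of all genes called lower was 9.92% at 1 to 10 CPM, 17.8% at 30 to 100 CPM, 29% at 100 to 300 CPM and 51.3% at 300 to 1000 CPM. Of the members, 2 of 11 were lower at 100 to 300 CPM and 8 of 11 at 300 to 1000 CPM. Among the less abundant members, 0 of 1 were lower at 1 to 10 CPM and 2 of 5 at 30 to 100 CPM. At 10 to 30 CPM 1 of 3 members were lower, beside 10.8% of all genes. Above 1000 CPM 1 of 2 members were lower, beside 59.7% of all genes. Over 100 to 1600 CPM, 624 of 1856 genes were lower (33.6%) and 215 higher (11.6%), and the median change was -0.049 on the log2 scale. The 24 members in that range had 11 lower (45.8%), 0 higher and a median of -0.068. A negative change was fitted for 1262 of the 1856 genes and for 23 of the 24 members. All KO libraries were below all WT libraries for 776 of these genes and for 14 of these members. In that range the share of members called lower was thus closer to that of genes of like abundance than to that of all genes. The 9 members under 100 CPM had 3 lower (33.3%).

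**Figure D1:**
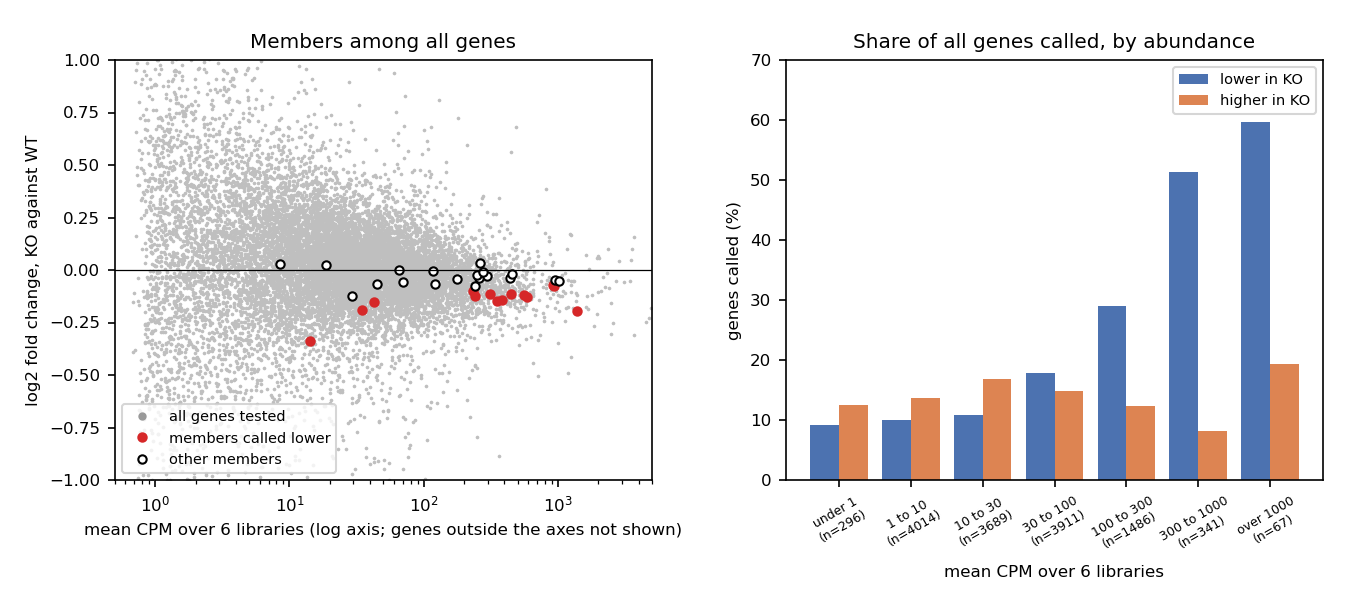
Left, log2 fold change of KO against WT (edgeR) for each gene tested against its mean CPM over the 6 libraries on a log axis, with the 33 members drawn larger and those called lower filled in red. Right, the share of all genes called lower or higher in bins of mean CPM, where the share called lower is 29% at 100 to 300 CPM and 51.3% at 300 to 1000 CPM.

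Cell type markers moved as well. The summed level of the 12 cardiomyocyte markers was 143300 to 147200 CPM in WT and 135800 to 137000 CPM in KO, and 9 of them were lower and 2 higher, the median change being -0.21 on the log2 scale. The 6 atrial markers summed to 595 to 601 CPM in WT and 1006 to 1030 CPM in KO, with 3 higher and 0 lower. The 3 higher were *Nppa*, *Myl4* and *Myl7*, at 372, 142 and 46.3 CPM on average in WT. In KO they were at 597, 305 and 77.7 CPM. The others, *Nr2f1*, *Nr2f2* and *Stard10*, overlapped between genotypes and were not called (log2 fold changes -0.23, 0.059 and -0.086). Endothelial markers had 3 of 7 lower and fibroblast markers 3 of 7 lower, and their summed levels were 1146 to 1152 and 2675 to 2678 CPM in WT and 1081 to 1095 and 2459 to 2502 CPM in KO. Epicardial markers had 2 of 5 higher, with summed levels of 135 to 138 CPM in WT and 145 to 157 CPM in KO. The 6 immune markers overlapped between genotypes in sum, with summed levels of 33.2 to 36.3 CPM in WT and 32.4 to 39.2 CPM in KO, and 1 of them was lower. The 3 erythroid markers in the table held 33.5 to 35.5 CPM in WT and 35.8 to 43.0 CPM in KO, with 1 lower and 1 higher. The 3 skeletal muscle markers in the table summed to 1111 to 1132 CPM in WT and 1022 to 1036 CPM in KO, nearly all of it *Ckm*, which the heart also expresses. In bulk tissue, fewer cells of a type and less RNA per cell cannot be told apart, and the part of cell composition in the enzyme results was not tested.

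**Figure D2:**
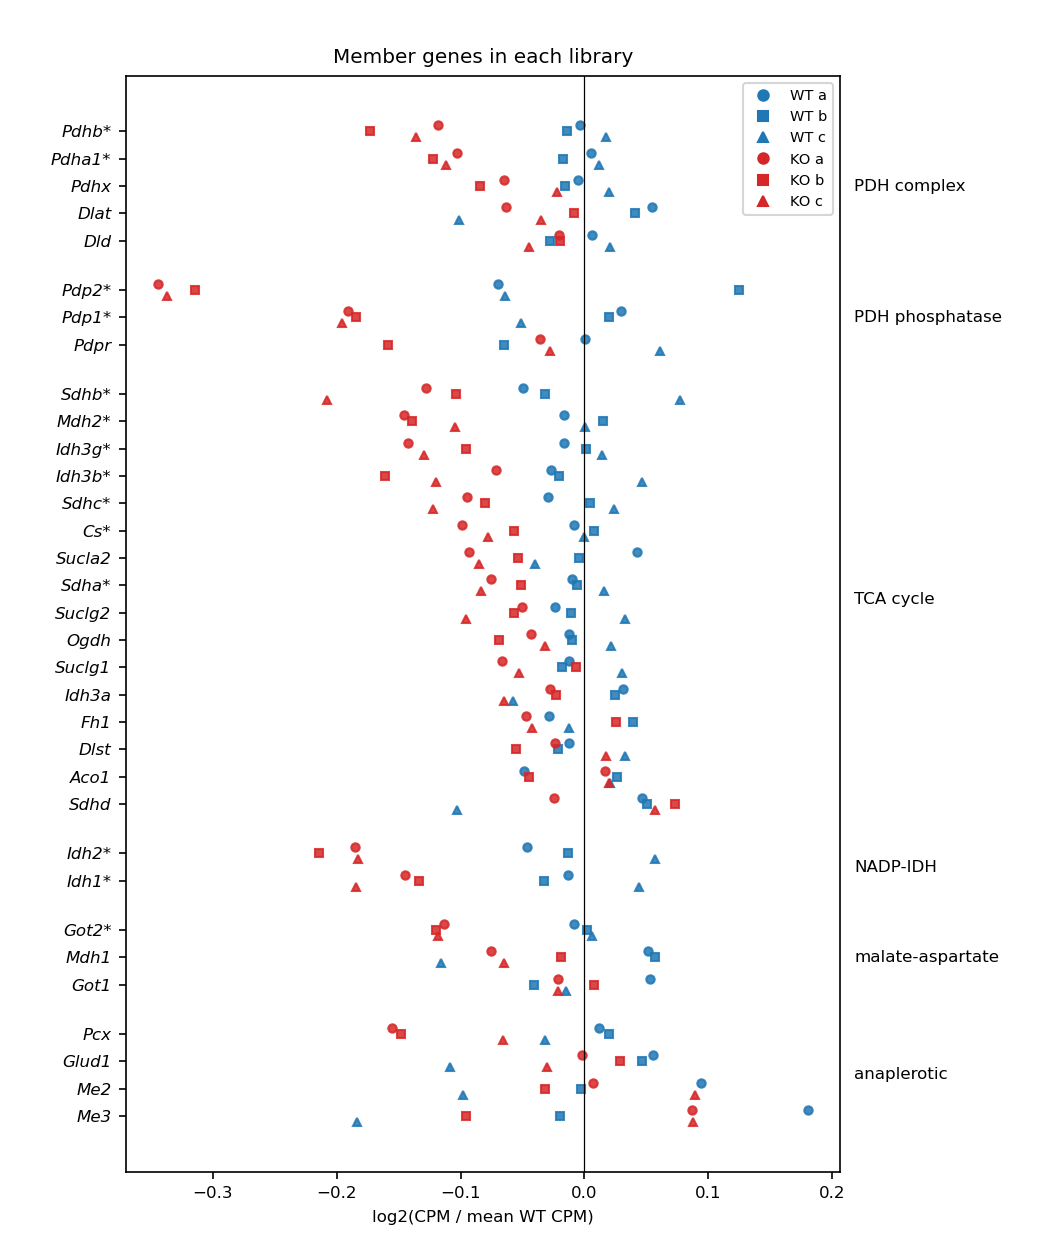
Level of each of the 33 genes in each library as log2 of its CPM over the mean WT CPM, with WT in blue, KO in red, a marker shape per library and the genes grouped by role. Asterisks mark the 14 genes lower in KO at an adjusted p under 0.05, for each of which the 3 KO libraries lie left of the 3 WT libraries.

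Levels of different genes were compared per length, as counts per kilobase of the longest transcript scaled to the same total, in the WT libraries. *Idh2*, the mitochondrial NADP-dependent isocitrate dehydrogenase, was the most abundant of the 33 at 2696 ± 59.4 (SD, n = 3), which ranked 26 among the genes of the table. *Mdh1* and *Mdh2*, the cytosolic and mitochondrial malate dehydrogenases, followed at 1581 ± 126 and 1240 ± 18.5. *Sdha* and *Cs* came next at 1054 ± 5.8 and 1032 ± 14.3. The subunits of PDH were of a similar level, with *Pdhb* at 551 ± 4.96 and *Pdha1* at 532 ± 7.59. The order of neighbours in level was not separated by the WT libraries for *Idh3a* and *Pdhb*, *Dlst* and *Got1*, *Dld* and *Sucla2*, *Dlat* and *Suclg1*, and *Pdpr* and *Pdp1*, whose ranges overlapped. The order depends on the length used. Per length of all exons merged, *Idh2* and *Mdh1* remained the highest at 2455 and 1720, but *Mdh2* and *Cs* were at 736 and 706, below *Sdha*, *Sdhd* and *Ogdh* at 975, 907 and 763, and *Dlst* was at 207. At the low end on both lengths stood the PDH phosphatases, per length of the longest transcript with *Pdp1* at 28.5 ± 1.27 and *Pdp2* at 9.06 ± 0.745, and the anaplerotic enzymes *Pcx*, *Me2* and *Me3* at 23.9 ± 0.788, 18.1 ± 1.47 and 6.12 ± 0.862.

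**Figure D3:**
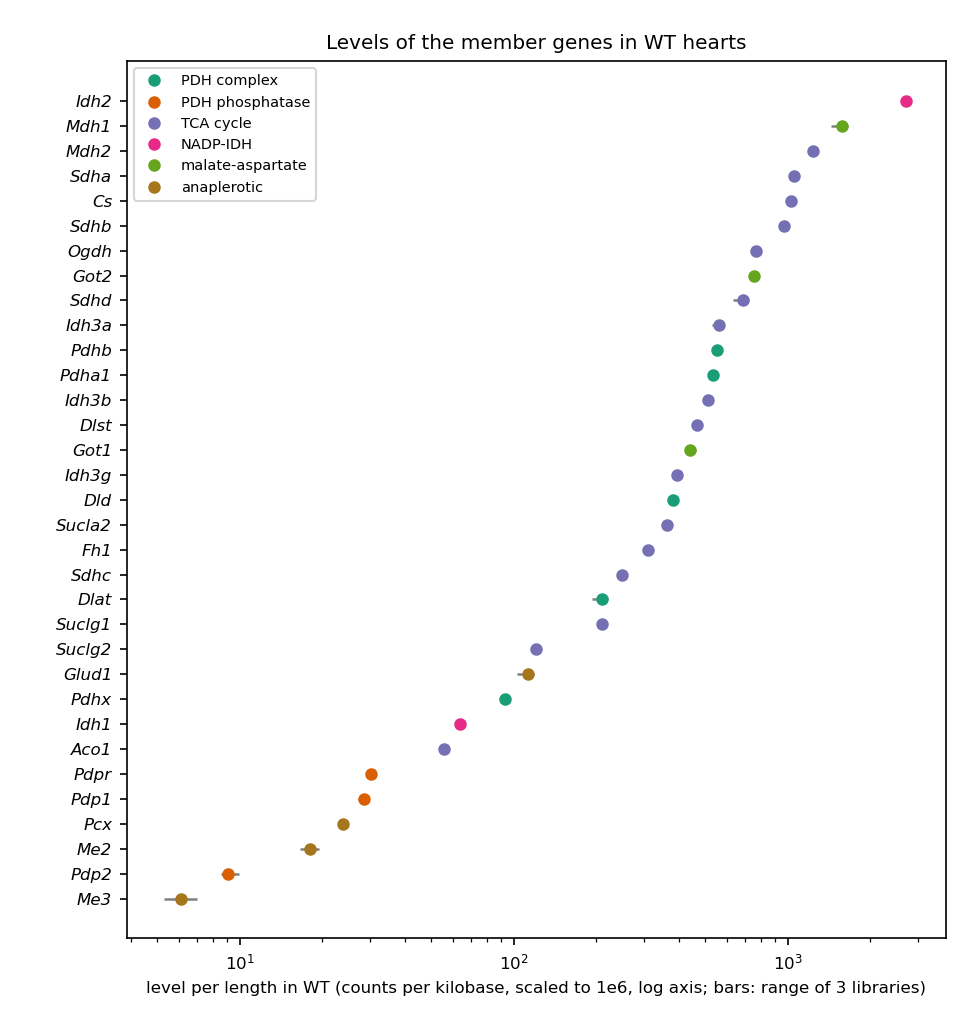
Level per length of the 33 genes in the 3 WT libraries (points: mean; bars: range; log axis), coloured by role. The genes run from *Idh2* at 2696 down to *Me3* at 6.12, with the PDH phosphatases and, apart from *Glud1*, the anaplerotic enzymes at the low end.

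The study follows NFY, a transcription factor that binds CCAAT, so the promoters of the members were searched for that motif. RefSeq promoters (GRCm38.p6) were at hand for 29 of the 33 genes, and CCAAT on either strand lay within 250 bases before to 50 bases after a start in 16 of them (55.2%) and in 42.3% of the 10325 genes of the table with a promoter. It was found in 8 of the 12 members called lower and in 8 of the 17 not called. The Sp motif GGGCGG was found in 69% of the members and 67.6% of all genes, the NRF1 motif in 13.8% and 11%, and the nuclear receptor motif AAGGTCA in 10.3% and 3.86%, which is 3 members. In the 250 bases before the start alone, AAGGTCA was found in 1 member (3.45%) and in 3.43% of all genes. The 250 bases before the start are shown for *Idh2*, the most abundant and most firmly called member (chr7:80115351-80115600, minus strand), for *Pdhb*, with 3 CCAAT (chr14:8172993-8173242, minus strand), for *Pdp2*, the member with the largest fall (chr8:104591222-104591471, plus strand), for *Mdh2*, which was called lower and has no CCAAT here (chr5:135778399-135778648, plus strand), and for *Got1*, which has 5 CCAAT and was not called (chr19:43524606-43524855, minus strand). They are written from the start-distal end to the start in the direction of transcription, with CCAAT or the other motifs named above, of either strand, in capitals.
Idh2: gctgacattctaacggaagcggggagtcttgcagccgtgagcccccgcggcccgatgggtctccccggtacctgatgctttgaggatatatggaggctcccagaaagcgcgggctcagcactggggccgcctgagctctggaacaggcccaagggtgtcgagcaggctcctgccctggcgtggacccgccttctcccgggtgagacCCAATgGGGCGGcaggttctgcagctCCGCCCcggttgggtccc
Pdhb: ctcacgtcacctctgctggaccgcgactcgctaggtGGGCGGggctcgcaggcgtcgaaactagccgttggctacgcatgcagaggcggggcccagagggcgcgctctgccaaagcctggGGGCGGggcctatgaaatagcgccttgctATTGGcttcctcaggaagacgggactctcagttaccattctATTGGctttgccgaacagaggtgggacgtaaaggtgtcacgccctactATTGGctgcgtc
Pdp2: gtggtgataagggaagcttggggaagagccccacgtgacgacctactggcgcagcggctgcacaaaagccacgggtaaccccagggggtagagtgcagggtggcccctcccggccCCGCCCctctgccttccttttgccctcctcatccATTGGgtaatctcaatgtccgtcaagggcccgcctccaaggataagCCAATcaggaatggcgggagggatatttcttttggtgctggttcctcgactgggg
Mdh2: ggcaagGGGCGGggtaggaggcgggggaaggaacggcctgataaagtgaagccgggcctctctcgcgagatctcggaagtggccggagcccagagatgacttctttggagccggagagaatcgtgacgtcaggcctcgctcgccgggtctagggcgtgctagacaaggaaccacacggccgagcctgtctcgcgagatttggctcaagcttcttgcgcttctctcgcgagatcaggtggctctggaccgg
Got1: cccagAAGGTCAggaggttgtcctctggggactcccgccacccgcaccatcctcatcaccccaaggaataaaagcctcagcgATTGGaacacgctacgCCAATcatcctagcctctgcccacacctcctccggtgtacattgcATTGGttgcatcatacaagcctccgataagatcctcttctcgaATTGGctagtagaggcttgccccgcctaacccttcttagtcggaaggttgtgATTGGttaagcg
A match is a sequence of letters and does not show that a factor binds there. The 5 genes were picked as examples, and a link between CCAAT and the falls was not tested. For *Mdh2*, *Pdp2*, *Idh2* and *Pdhb* the RefSeq start used lies inside the gene as annotated by GENCODE. Part of each of these stretches is therefore within the gene. On the plus strand *Mdh2* begins at base 135778480 and *Pdp2* at base 104591451. On the minus strand *Idh2* begins at base 80115392 and *Pdhb* at base 8173025. The stretch of *Got1* lies wholly before its gene, which begins at base 43524605 on the minus strand.

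Both catalytic subunits of PDH fell. *Pdhb*, the beta subunit of the decarboxylating component, had 402, 399 and 408 CPM in WT and 371, 357 and 366 CPM in KO. The groups did not overlap, and the mean fell by 9.39% (log2 fold change -0.14, SE 0.029, edgeR adjusted p = 4.56e-04). *Pdha1*, the X-linked alpha subunit, had 468, 461 and 470.2 CPM in WT and 434, 428 and 432 CPM in KO, again without overlap, and its log2 fold change was -0.11 (SE 0.027, edgeR adjusted p = 0.0026). Among the 475 X-linked genes tested, 15.2% were lower and 10.1% higher, with a median of -0.028. Of the 31 members outside X, 12 were lower (38.7%). The subunits of the complex beyond these were not called. *Dlat*, the acetyltransferase core, had 271, 268 and 243 CPM in WT and 249.8, 259.6 and 255 in KO. Its lowest library was WT c, and the groups overlapped (log2 fold change -0.037, 95% interval -0.11 to 0.038). Without WT c the log2 fold change was -0.085, with an edgeR adjusted p of 0.0153. *Dld*, the lipoamide dehydrogenase shared with the alpha-ketoglutarate dehydrogenase complex, was 293 to 303 CPM in WT and 289.5 to 294 CPM in KO. *Pdhx*, which anchors that dehydrogenase in the complex, lay at 71.5, 70.9 and 72.7 CPM in WT and at 68.6, 67.6 and 70.6 CPM in KO, all KO libraries below all WT libraries, yet its change missed the threshold (edgeR adjusted p = 0.381). Of the 50-base words of the *Pdhb* transcript, 30.3% also occur in the pseudogene *Gm6123*, and 16.1% of the exon bases of *Pdha1* overlap *Map3k15* on the opposite strand, so reads of these genes may have been shared.

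Both catalytic subunits of PDH phosphatase, which reactivates PDH, fell, and *Pdp2* had the largest fitted fall of the 33 genes. *Pdp2* had 15.1, 17.3 and 15.2 CPM in WT and 12.5, 12.8 and 12.6 CPM in KO. WT b was the highest library and all KO libraries were below all WT libraries, and the mean fell by 20.5% (log2 fold change -0.34, 95% interval -0.52 to -0.16, edgeR adjusted p = 0.00472). *Pdp1*, the calcium-stimulated isoform, had 37.6, 37.4 and 35.5 CPM in WT and 32.3, 32.4 and 32.1 CPM in KO. The KO libraries lay close together and below WT (log2 fold change -0.19, 95% interval -0.31 to -0.072, edgeR adjusted p = 0.014), although without WT b the adjusted p was 0.0518. That of *Pdp2* without WT b was 0.0495 in the edgeR test, at a log2 fold change of -0.27. The regulatory subunit *Pdpr* had 46.0, 43.9 and 48.0 CPM in WT and 44.8, 41.2 and 45.1 CPM in KO, overlapping, and was not called (95% interval -0.18 to 0.049).

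The kinases that oppose these phosphatases and the pyruvate carrier of the inner membrane are not members, but they act on the same step. *Pdk4*, a kinase induced by fasting and fatty acids, was lower at 68.6, 71.1 and 60.9 CPM in WT against 44.7, 46.7 and 44.9 CPM in KO, with a log2 fold change of -0.56 (edgeR adjusted p = 1.32e-08). *Pdk2* was lower as well (-0.13, edgeR adjusted p = 0.00694). *Pdk1* and *Pdk3* had all KO libraries above all WT libraries but were not called, with log2 fold changes of 0.072 and 0.10 (edgeR adjusted p = 0.0763 and 0.157). Genes of both the activating and the inactivating arm of PDH control were therefore among those that fell. For the carrier, *Mpc1* was 24.1, 20.6 and 30.4 CPM in WT and 18.1, 16.6 and 18.5 CPM in KO (-0.48, edgeR adjusted p = 5.08e-04), whereas *Mpc2*, its partner, was at 0.093 and was not called (edgeR adjusted p = 0.0875). *Mpc1* shares 23.2% of its 50-base words with other genes, chiefly *Mpc1-ps*, and 23.1% of its exon bases overlap a gene on the opposite strand.

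**Figure D4:**
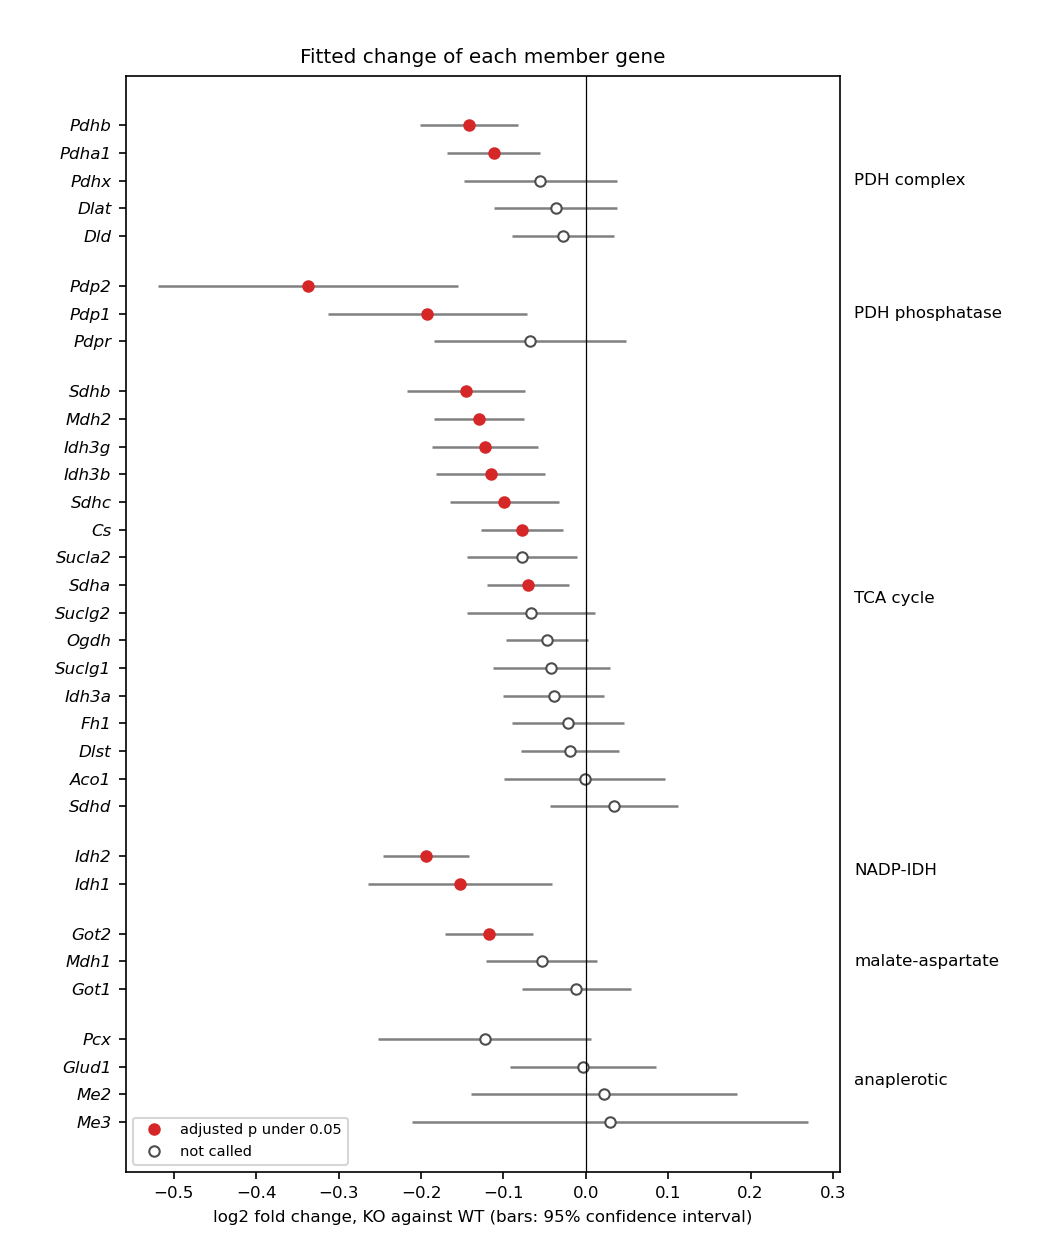
Fitted log2 fold change of KO against WT for each of the 33 genes with its 95% confidence interval, grouped by role. Filled red points are the 14 genes lower at an adjusted p under 0.05, from *Pdp2* at -0.34 to *Sdha* at -0.07, and open points are the 19 not called.

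Of the 16 genes grouped under the cycle, among which the cytosolic *Aco1* was counted, 7 were lower and 0 higher. Their median was -0.068 on the log2 scale. At the entry of the cycle, *Cs*, citrate synthase, had 948, 959 and 953 CPM in WT and 890.3, 916 and 903 CPM in KO. All KO libraries were below all WT libraries, and the log2 fold change of -0.078 passed the threshold (SE 0.024, edgeR adjusted p = 0.0157), though not without WT b, without KO a or with upper quartile scaling (edgeR adjusted p = 0.0616, 0.102 and 0.0662). *Aco1*, a cytosolic aconitase that also binds iron-responsive RNA elements, overlapped at 63.4, 66.8 and 66.5 CPM in WT and 66.3, 63.6 and 66.5 CPM in KO. Its values do not describe the aconitase step inside mitochondria.

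Of the NAD-dependent isocitrate dehydrogenase, a rate-limiting step of the cycle, the beta and gamma subunits fell and the catalytic alpha subunit was not called. *Idh3g*, X-linked, had 251, 254 and 256 CPM in WT and 229.7, 237 and 232 CPM in KO (-0.12, SE 0.032, edgeR adjusted p = 0.0041). *Idh3b* had 317, 318 and 334 CPM in WT and 308, 289 and 297 CPM in KO (-0.12, SE 0.032, edgeR adjusted p = 0.00766). Neither overlapped between genotypes, and *Idh3b* lost its call without KO b (edgeR adjusted p = 0.0679). *Idh3a* had 455, 453 and 428 CPM in WT and 437, 438 and 426 CPM in KO, where WT c was as low as the KO libraries. Its 95% interval was -0.10 to 0.022, and without WT c the log2 fold change was -0.068 with an edgeR adjusted p of 0.0238.

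The alpha-ketoglutarate dehydrogenase genes were not called. *Ogdh*, the decarboxylating component, had 965, 967 and 988 CPM in WT and 945, 928 and 952 CPM in KO, all KO below all WT, and missed the threshold (edgeR adjusted p = 0.144). *Dlst*, the succinyltransferase, overlapped at 458, 455 and 472 CPM in WT and 454, 444 and 467 CPM in KO. Among relatives of *Ogdh* outside the list, *Ogdhl* was higher at 15.3, 13.5 and 10.4 CPM in WT against 17.9, 17.3 and 16.7 CPM in KO, and so was *Dhtkd1*, which acts in lysine breakdown, with log2 fold changes of 0.39 and 0.44 (edgeR adjusted p = 0.00405 and 0.00989). These were the only genes called higher among the 34 neighbouring genes tested. The succinyl-CoA ligase genes were not called. *Sucla2*, the ADP-forming beta subunit, had 256, 248 and 242 CPM in WT and 233, 239 and 234 CPM in KO, without overlap (edgeR adjusted p = 0.0734, and 0.006 without WT c at a log2 fold change of -0.098). *Suclg2*, the GDP-forming beta subunit, had 123, 124 and 128 CPM in WT and 120.5, 120.0 and 117 CPM in KO, also without overlap (edgeR adjusted p = 0.19). *Suclg1*, their common alpha subunit, overlapped at 177, 176 and 182 CPM in WT and 170.3, 178 and 172 CPM in KO. Of the 50-base words of *Suclg2*, 21.8% occur in *Gm15163*.

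Succinate dehydrogenase, which is also complex II of the respiratory chain, had its flavoprotein, iron-sulfur and 1 of its membrane subunits lower. *Sdhb*, the iron-sulfur subunit, had 355, 359 and 387 CPM in WT and 336, 342 and 318 CPM in KO. WT c was the highest library and KO c the lowest, and the log2 fold change was -0.15 (SE 0.035, edgeR adjusted p = 0.00218). *Sdha*, the flavoprotein, had 934, 936 and 951 CPM in WT and 892, 908 and 888 CPM in KO (-0.07, SE 0.024, edgeR adjusted p = 0.0296). The membrane anchors differed in their calls: *Sdhc* had 238, 243 and 247 CPM in WT and 227, 229 and 223 CPM in KO (-0.10, edgeR adjusted p = 0.0202), while *Sdhd* overlapped at 269, 270.2 and 243 CPM and 256, 274 and 271 CPM and had the largest positive estimate of the 33 (0.034, 95% interval -0.044 to 0.11). WT c was the lowest library for *Sdhd*, and without it the estimate was -0.015. The difference between *Sdhc* and *Sdhd* was not tested. The calls of *Sdhc* and *Sdha* were lost without WT b, without KO a and without KO c, where the edgeR adjusted p was 0.0612 to 0.0907 for *Sdhc* and 0.0668 to 0.109 for *Sdha*. They were lost with upper quartile scaling as well (edgeR adjusted p = 0.0619 for *Sdhc* and 0.119 for *Sdha*), and that of *Sdha* also with DESeq2 (adjusted p = 0.0756) and the edgeR likelihood ratio test (adjusted p = 0.0706). Of the assembly factors, *Sdhaf1* was lower (-0.26, edgeR adjusted p = 0.0221), but not with DESeq2 (adjusted p = 0.0813) or without WT b, KO b or KO c (edgeR adjusted p = 0.0583, 0.0863 and 0.0587), and 69.6% of its exon bases overlap *E130208F15Rik* on the opposite strand. The other 8 genes of lipoylation and succinate dehydrogenase assembly were not called.

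At the end of the cycle, *Fh1*, fumarase, overlapped at 247, 259 and 249.7 CPM in WT and 244, 256 and 245 CPM in KO (95% interval -0.089 to 0.046). *Mdh2*, the mitochondrial malate dehydrogenase that regenerates oxaloacetate, had 606, 619 and 613 CPM in WT and 554, 556 and 569.8 CPM in KO. The groups stood well apart and the mean fell by 8.61% (log2 fold change -0.13, SE 0.026, edgeR adjusted p = 4.54e-04), and the call held in each of the 17 other settings.

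Both NADP-dependent isocitrate dehydrogenases, which yield NADPH, were lower. *Idh2* had 1438, 1471 and 1545 CPM in WT and 1306, 1280 and 1308 CPM in KO. WT c was the highest library and the KO libraries were close together, and the mean fell by 12.6%, with the smallest adjusted p of the members (log2 fold change -0.19, SE 0.025, edgeR adjusted p = 1.42e-06). The cytosolic *Idh1*, at far lower counts, had 44.8, 44.2 and 46.6 CPM in WT and 40.9, 41.2 and 39.8 CPM in KO without overlap (-0.15, SE 0.054, edgeR adjusted p = 0.0335). Its call was lost in 7 of the 17 other settings, among them each fit that left out a library other than WT b (edgeR adjusted p = 0.0552 to 0.114).

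In the malate-aspartate shuttle, which carries cytosolic reducing equivalents into mitochondria, the mitochondrial transaminase fell and the cytosolic enzymes were not called. *Got2* had 582, 586 and 587 CPM in WT and 541, 538 and 539 CPM in KO. Libraries of a genotype were nearly alike and the groups were apart (log2 fold change -0.12, SE 0.026, edgeR adjusted p = 0.00107), with 32.3% of the 50-base words of *Got2* also in *Got2-ps1*. *Got1*, the cytosolic transaminase, overlapped at 289.5, 271 and 276 CPM in WT and 275, 280.5 and 275 CPM in KO (95% interval -0.078 to 0.054). *Mdh1* had 1069, 1073 and 952 CPM in WT and 979, 1018 and 986 CPM in KO. WT a and WT b were above all KO libraries and WT c was below them, and the edgeR adjusted p was 0.228 with all libraries and 1.21e-05 without WT c, at a log2 fold change of -0.11. The carriers of the shuttle and of citrate and malate had 0 of 5 called, with log2 fold changes from -0.13 to 0.039 and 0 past an unadjusted p of 0.05 in the edgeR test.

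None of the 4 anaplerotic and cataplerotic enzymes was called, and 0 had an unadjusted p under 0.05 in the edgeR test. *Pcx*, pyruvate carboxylase, which makes oxaloacetate from pyruvate, had 30.8, 30.9 and 29.8 CPM in WT and 27.4, 27.5 and 29.1 CPM in KO. All KO libraries were below all WT libraries, with an interval from -0.25 to 0.00647 on the log2 scale. *Glud1*, glutamate dehydrogenase, had the same mean in both genotypes, at 123, 122 and 109.5 CPM in WT and 118, 120.4 and 116 CPM in KO. The mitochondrial malic enzymes *Me2* and *Me3* were low, *Me2* at 19.98, 18.7 and 17.5 CPM in WT and 18.8, 18.3 and 19.91 CPM in KO and *Me3* at 9.56, 8.32 and 7.42 CPM and 8.96, 7.89 and 8.96 CPM, and their intervals of -0.14 to 0.18 and -0.21 to 0.27 leave changes of the size of the called members undecided. The groups overlapped for *Glud1*, *Me2* and *Me3*, and WT c was the lowest WT library.

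Ratios of partner genes within a library do not depend on the scaling between libraries. Of 10 pairs compared, 4 had KO and WT ratios that did not overlap, each with p = 0.1 in a two-sided exact permutation test, the smallest p that 3 against 3 libraries allow, and 0.25 after Benjamini-Hochberg adjustment over the pairs. The log2 ratio of *Got1* to *Got2* was -1.01, -1.11 and -1.09 in WT and -0.98, -0.94 and -0.97 in KO, a shift of 0.11 toward the cytosolic transaminase. That of *Pdp1* to *Pdp2* was 1.31, 1.11 and 1.23 in WT and 1.37, 1.34 and 1.36 in KO, a shift of 0.14. The shifts were 0.075 for *Sdha* to *Sdhb* and 0.03 for *Pdha1* to *Pdhb*. The ratio of *Mdh1* to *Mdh2* was 0.82, 0.79 and 0.64 in WT and 0.82, 0.87 and 0.79 in KO, overlapping (exact permutation p = 0.3). The ratio of *Idh3a* to *Idh3b* overlapped as well (exact permutation p = 0.5). For both of these pairs WT c was the lowest library by a margin. *Idh1* to *Idh2*, *Sucla2* to *Suclg2*, *Me2* to *Me3* and *Dlat* to *Pdhx* shifted by 0.04, -0.0099, -0.0099 and 0.023, with overlapping groups (exact permutation p = 0.2 to 0.9). No pair was thus shown to change in proportion at this number of libraries.

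**Figure D5:**
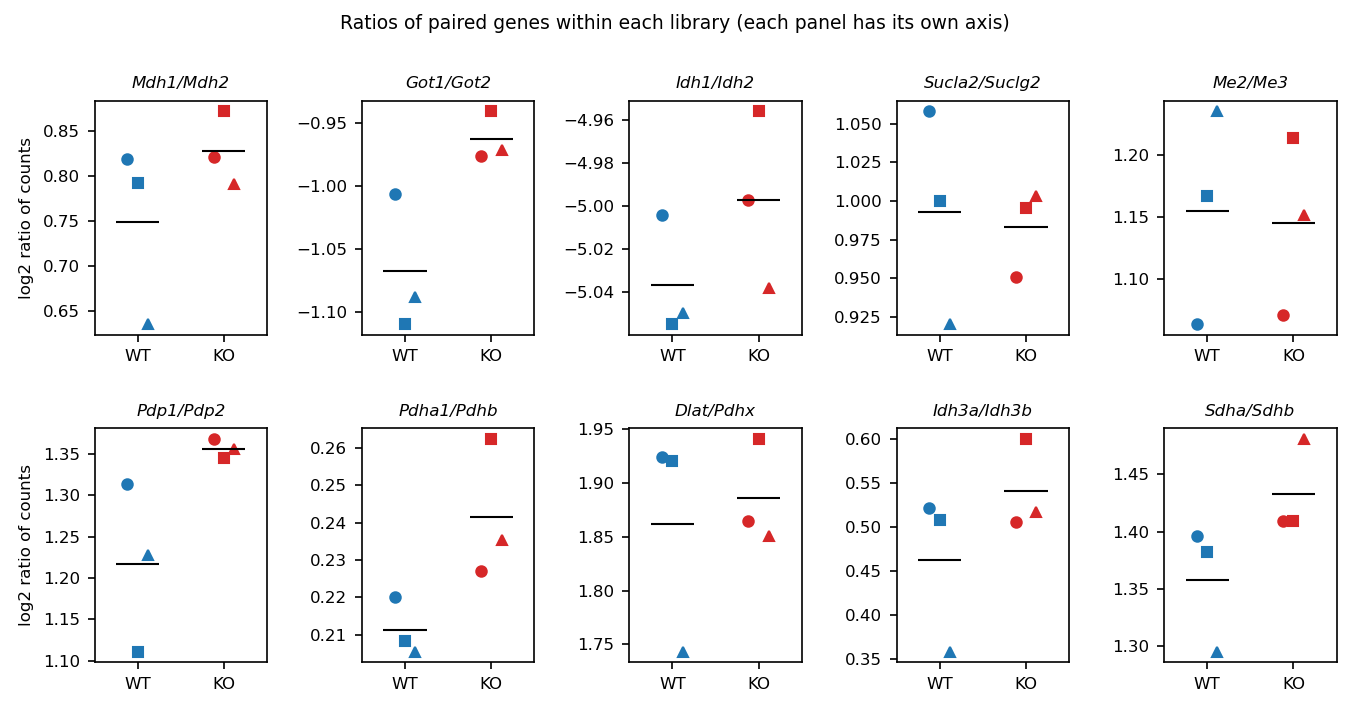
Log2 ratio of counts of 10 gene pairs in each library, WT in blue and KO in red, with a marker shape per library and the group mean as a line; each panel has its own axis. KO and WT points do not overlap for *Got1*/*Got2*, *Pdp1*/*Pdp2*, *Pdha1*/*Pdhb* and *Sdha*/*Sdhb*.

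Of 34 neighbouring genes tested, 9 were lower (26.5%) and 2 higher (5.88%), against 15.7% and 14.6% of all genes tested. Their median was -0.048 on the log2 scale. Besides those above, *Glul*, glutamine synthetase, was lower at 142, 140.5 and 152 CPM in WT against 120.0, 123 and 112 CPM in KO (-0.29, edgeR adjusted p = 4.95e-06), and so was *Acly*, which splits citrate in the cytosol, at 115, 120.3 and 114 CPM against 97.4, 95.2 and 101 CPM (-0.25, edgeR adjusted p = 2.40e-05). *Mut* and *Pccb*, which lead propionate into the cycle as succinyl-CoA, had log2 fold changes of -0.19 and -0.14 (edgeR adjusted p = 0.00282 and 0.0286). The call of *Pccb* was lost in 6 of the 17 other settings: with upper quartile scaling, with DESeq2, and without WT b, WT c, KO b or KO c (adjusted p = 0.052 to 0.157). Of the 36 structural subunits of respiratory complex I, 9 were lower and 1 higher, with a median of -0.042. Of 77 mitochondrial ribosomal protein genes, 4 were lower and 0 higher in the edgeR test, with 3 higher at an unadjusted p under 0.05, and the median was 0.00665. The shares called lower were thus 42.4% for the members, 25% for complex I and 5.19% for the mitochondrial ribosome, beside 15.7% of all genes. The lists also differed in abundance, with which the share called lower rose over all genes. In WT they summed to 11880 to 11920 CPM for the 33 members, 5322 to 5560 CPM for the 36 complex I genes and 2576 to 2757 CPM for the 77 ribosomal genes. The differences between these lists were not tested.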

How the data were processed

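Total RNA was depleted of ribosomal RNA and sequenced by the authors as paired ends. The authors deposited whole-number read counts per gene symbol. Per the submitters' processing notes, cutadapt 1.18, HISAT2, StringTie and mm10 were used; the counting program and its strand setting are not given in the sources used here. The authors also deposited log2 fold changes, log2 CPM averages and p-values of their own comparison, which were not used. Column names give the genotype but no replicate number, so libraries were lettered a to c.

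R 4.3.3 and edgeR 4.0.16 were used for the fit. By filterByExpr 13804 genes were tested, each with at least 59 counts over the libraries, and were scaled by TMM and fitted by genotype with the quasi-likelihood test (common biological coefficient of variation 3.42%). P-values were adjusted by Benjamini-Hochberg over all genes tested, with 0.05 as threshold. A gene was called lower or higher by that threshold. DESeq2 1.42.0 and limma 3.58.1 served as alternatives, with other scalings, filters and left-out libraries. Scripts were tested on simulated data. Every member is named, and neighbouring genes where they were called or where a result turns on them. The values of 1 neighbouring gene are not reported here. The members and lists were chosen with earlier results of these data known. A chi-square test of counts found that each pair of libraries differed beyond sampling noise, so all were kept. Lengths, shared words and exon overlaps came from GENCODE release M21, promoters from RefSeq. Where replicates share an embryo, p-values measure only the spread between these samples, which may be technical, and the level of 3 counts covers counting error only.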

Additional observations from a re-analysis of the deposited data

How the results depend on the processing

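Of the 14 members called lower, 8 were called in each of the 17 other settings that gave them a value (*Pdha1*, *Pdhb*, *Pdp2*, *Idh2*, *Idh3g*, *Sdhb*, *Mdh2* and *Got2*; *Pdha1* and *Idh3g* have no value without X and Y), and no member was called higher in any of them. The count of members lower was 10 with upper quartile scaling, 12 with DESeq2, 13 with the likelihood ratio test and 14 with the exact test and limma voom. It ranged from 10 to 17 when a library was left out, with 17 without WT c, where *Mdh1*, *Dlat*, *Idh3a* and *Sucla2* were added and *Idh1* lost. The median log2 fold change of the members was -0.049 with upper quartile scaling and ranged from -0.0795 to -0.0675 when a library was left out. Beside 15.7% of all genes, 33.6% of genes of 100 to 1600 CPM, a range chosen after seeing the data, were lower. Neighbouring genes called higher were 4 with upper quartile scaling against 2. Of all genes, 1639 were lower with DESeq2 and 1362 higher, against 2168 and 2011.

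Direction changed for 6 members, none of them called in any setting. With upper quartile scaling the log2 fold changes were 0.0171 for *Aco1*, 0.00681 for *Got1* and 0.0154 for *Glud1*. With at least 10 counts in every library *Aco1* was at 0.000443, and with WT a and WT b summed *Glud1* was at 0.0144. When a library was left out the estimates ranged from -0.0266 to 0.018 for *Aco1*, -0.0152 to 0.064 for *Sdhd*, -0.0213 to 0.0694 for *Me2*, -0.047 to 0.124 for *Me3*, -0.0342 to 0.0145 for *Got1* and -0.0542 to 0.0228 for *Glud1*. The cause was not tested. No paired analysis was possible because column names of the table hold only the genotype.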

Other observations

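Library WT c carried much of the spread among WT values of the members. Its value differed by over 0.1 on the log2 scale from the mean of the other WT libraries in 7 of the 33 genes, against 2 for WT a and 1 for WT b, and in 0, 2 and 1 genes for KO a, b and c.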
